A study of Mus musculus with 17 samples.

Results

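The Fanconi anaemia genes followed here are *Fanca*, *Fancb*, *Fancc*, *Fancd2*, *Fance*, *Fancf*, *Fancg*, *Fanci*, *Fancl* and *Fancm*. They were chosen by name and not by a rule on their values, but with earlier results of these data known. Of the 10, 10 were listed among the 23282 genes of the deposited table. The libraries came from 3 kinds of germ cell sorted by flow cytometry from testes of wild-type (WT) and *Nat10*-SKO mice on the C57BL/6 background (C57BL/6J in the study's methods), namely spermatogonia (SPG), spermatocytes at the pre-leptotene stage (PreL) and those in leptotene or zygotene (LZ). The SKO mice carry a floxed and a null *Nat10* allele together with a GFP-Cre knocked into *Stra8*, which removes exons 4 and 5 of *Nat10*, the RNA cytidine acetyltransferase gene, from germ cells that have switched *Stra8* on, so cells sorted before or around that time may still carry the intact allele. The WT libraries are labelled wild type only, and the sources used here do not give their alleles at *Nat10* or *Stra8* or the age of the mice. There were 3 libraries in each SPG and PreL group, 2 in WT LZ and 3 in SKO LZ, 17 in all. The study calls the replicates biological, but no source used here says whether each came from a separate mouse, so the p-values measure the spread between these libraries, which may be technical.

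The Fanconi anaemia pathway repairs DNA interstrand crosslinks and protects stalled replication forks. FANCM, a DNA translocase, brings a multi-subunit ubiquitin ligase, the core complex, to the lesion. In that complex FANCL is the catalytic RING subunit, FANCB holds it, FANCA pairs with FANCG, and FANCC, FANCE and FANCF form a module that contacts the substrate. The substrate is the FANCD2–FANCI clamp, which is locked on DNA by monoubiquitination, and nucleases, translesion polymerases and recombination proteins then act. In the mouse, loss of pathway genes reduces the number of germ cells, and FANCD2 is found on the sex chromosomes of pachytene spermatocytes.

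Values are given as rescaled values, which are the recovered reads of a gene brought to a common library size over all 17 libraries by median-of-ratios size factors. A library held 9885136 to 13042071 recovered reads in SPG and 10574858 to 11268541 in PreL. The LZ libraries differed in depth by genotype, with 13666762 and 13820953 reads in WT against 5812380 to 7609420 in SKO. *Nat10* was lower in every SKO library than in every WT library of its stage, with log2 differences of -0.87 in SPG, -1.29 in PreL and -1.47 in LZ. On the deposited ERCC-calibrated scale the PreL difference was -0.59 (adjusted p = 0.114), with overlapping libraries (467, 626 and 379 in WT, 349, 396 and 228 in SKO). Of 8 spermatogonial markers, 0 were absent, and their sum was 17330 to 20331 in WT SPG and 22797 to 23403 in SKO SPG. The means of 4 of the 8 were higher in SKO SPG. The 3 meiotic entry markers listed (*Meiosin* was not) summed to 17364 to 20200 in WT PreL and 8672 to 12604 in SKO PreL. The mean of 1 of the 3 was higher in SKO PreL. Means in WT and SKO PreL were 14714 and 8662 for *Stra8*, which holds the GFP-Cre in SKO mice, and 281 and 331 for *Rec8*. The summed rescaled value of 7 late spermatocyte markers was 65825 and 149740 in WT LZ and between 2931 and 3905 in SKO LZ, that of 7 spermatid markers lay between 2238 and 20908 in WT libraries and between 93.4 and 283 in SKO libraries, and the means of 5 of 5 Leydig and 5 of 5 macrophage markers were higher in SKO in each stage, with summed Leydig values of 124 to 926 in WT and 853 to 7281 in SKO. Peritubular myoid markers summed to 17.5 to 94.9 in WT SPG and 733 to 1434 in SKO SPG (5 of 5 higher), and Sertoli markers to 422 to 634 in WT PreL and 591 to 5684 in SKO PreL (6 of 6 higher). At 0 in all libraries of a group were *Emr1* in WT SPG, *Amh* and *Pecam1* in WT PreL, *Acrv1* in SKO SPG, *Acr* in SKO PreL and *Acrv1*, *Odf1* and *Amh* in SKO LZ. The 9 leptotene/zygotene markers summed to 94664 to 137421 in WT LZ and 100029 to 138538 in SKO LZ. The means of 4 of the 9 were higher in SKO LZ. Those of *Spo11* (2364 in WT LZ, 494 in SKO LZ) and *Syce1* (15107 and 3609) were lower. The 9 markers were also found in the SPG libraries, with sums of 54652 to 87168. In sorted cell pools, fewer cells of a type and less RNA per cell cannot be told apart.

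Per kilobase of exon, *Fanca* and *Fancb* had the lowest mean levels of the 10 genes in each of the 6 groups, and *Fancc* came next in every group except WT LZ. Per length of the longest transcript, *Fancc* also lay above *Fancf* in WT PreL (3.72 and 3.19) and SKO PreL (5.53 and 3.99). On the scale of reads per kilobase of exon adjusted for library depth (RPKM), *Fancd2* had the highest mean level in WT SPG (7.53 ± 0.858, SD, n = 3) and in WT PreL (8.12 ± 0.870, n = 3). In neither group was it separated from the next gene, *Fancf* at 5.08 to 10.8 in WT SPG and *Fancg* at 5.45 to 7.82 in WT PreL. *Fancg* came first in WT LZ, at 11.0 and 18.0, ahead of *Fancl* at 8.75 and 11.1. In SKO cells the first places went to *Fanci* in SPG (6.60 ± 0.716, n = 3), *Fancl* in PreL (7.33 ± 1.16, n = 3) and *Fancf* in LZ (5.18 ± 0.0954, n = 3). That *Fancf* level was not separated from *Fancl*, whose 3 SKO LZ libraries ran from 3.32 to 7.09. Nor was *Fanci* separated in SKO SPG from *Fance*, at 6.285 to 6.52. Per length of the longest transcript, *Fancl* at 6.10, *Fance* at 5.91 and *Fancg* at 5.55 came before *Fancf* in SKO LZ. By that length *Fance* at 9.29 came before *Fanci* at 8.21 in SKO SPG. *Fanca* had group means of 0.174 to 0.603 and *Fancb* of 0.0094 to 0.407. *Fancc*, for which the annotation lists 19 transcripts, depended most on the length used, with 2.98 in WT LZ per exon union and 7.86 per longest transcript.

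**Figure D1:**
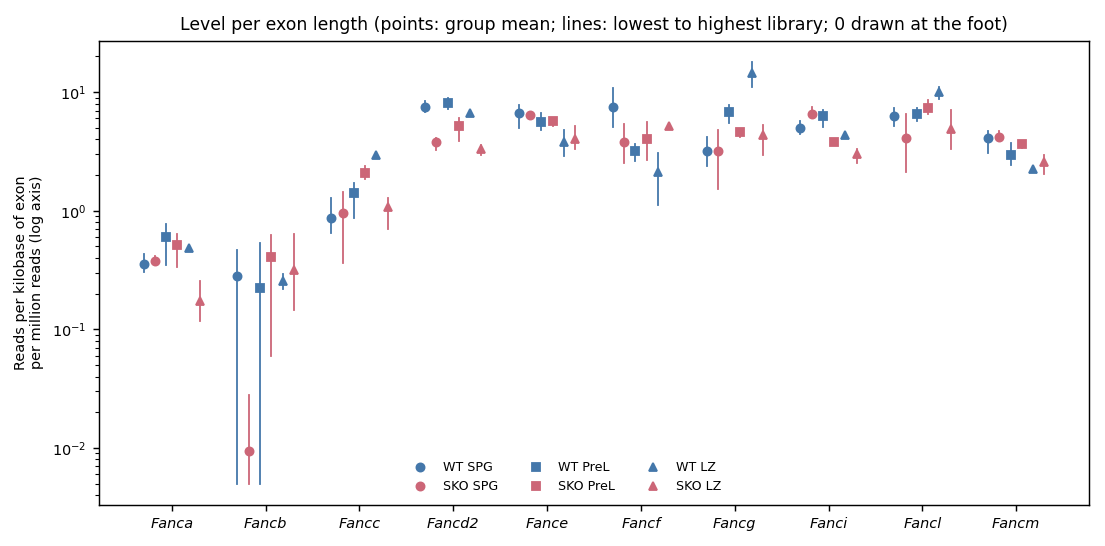
Level of each of the 10 genes in reads per kilobase of exon adjusted for library depth (RPKM), on a log axis. Symbols are group means (circles SPG, squares PreL, triangles LZ, blue WT, red SKO), lines run from the lowest to the highest library, and a library at 0 is drawn at the foot of the axis. *Fanca* and *Fancb* lie below the other genes, and *Fancg* in WT LZ is the highest point at a mean of 14.5.

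Genotype was compared within each stage with limma on log2(rescaled value + 10), with p adjusted over all genes tested, and a call required an adjusted p below 0.05 together with a log2 fold change beyond 1 in either direction. In SPG, 9 of the 10 genes passed the filter of a mean of 10 recovered reads and 0 were called by limma, 2 having an unadjusted p under 0.05, while edgeR and DESeq2 on the recovered reads each called 1, *Fancd2*. Of all genes tested in SPG, 2.06% were called lower and 3.95% higher in SKO. All 10 passed the filter in PreL, where limma, edgeR and DESeq2 called 0, 3 having an unadjusted p under 0.05 in limma, against 5.83% of all genes called lower and 5.32% higher. In LZ, *Fancc* and *Fancg* fell and *Fancf* rose among 9 genes tested, against 25.8% of all genes called lower and 13.4% higher, and edgeR and DESeq2 also called 2 lower and 1 higher. These shares of the 9 genes were close to those of the whole table. At an adjusted p under 0.05 without the fold, 1 gene passed in SPG, 2 in PreL and 4 in LZ, where the shares of all genes tested were 11.1%, 17.9% and 50.9%. The median log2 fold change of the genes tested was -0.05 in SPG, 0.02 in PreL and -0.63 in LZ, beside 0.0014, 0.04 and -0.13 over all genes.

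The WT and SKO libraries did not overlap for 2 of 9 genes in SPG, 4 of 10 in PreL and 7 of 9 in LZ. Over all genes tested these shares were 29.5% in SPG, 37.4% in PreL and 70.3% in LZ, so the counts stood near those of the whole table. In SPG, *Fancd2* was below and *Fanci* above WT. In PreL, *Fancd2*, *Fancg* and *Fanci* were below and *Fancc* above. In LZ, *Fanca*, *Fancc*, *Fancd2* and *Fancg* were below and *Fance*, *Fancf* and *Fancm* above. *Fancd2* was the only one of the 10 genes whose SKO libraries lay below the WT libraries in all 3 stages. The share of all genes that did so was not counted, so whether this is unusual is not known.

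*Fancd2* encodes the ubiquitinated subunit of the clamp (chr6:113531682-113597017, plus strand, GRCm38). It had 1173, 1517 and 1171 rescaled values in the WT SPG libraries and 559, 691 and 681 in the SKO SPG libraries, a mean ratio of 0.500. The PreL libraries held 1525, 1447 and 1353 in WT and 944, 964 and 707 in SKO, and the LZ libraries 1009 and 1355 in WT and 735, 772 and 782 in SKO. Every SKO library was thus below every WT library of any stage. The log2 fold change was -0.99 ± 0.20 (SE, adjusted p = 0.00614) in SPG, -0.72 ± 0.16 (adjusted p = 0.0170) in PreL and -0.63 ± 0.20 (adjusted p = 0.0350) in LZ, so that it passed the adjusted p in each stage and the fold threshold in none. In SPG it stood just short of the fold, and TMM scaling, a pseudocount of 1, edgeR, DESeq2 and the removal of length and GC trends gave -1.01 to -1.05 and a call. Leaving out any 1 library gave an adjusted p of 0.0147 to 0.0279 in SPG, 0.0285 to 0.0560 in PreL and 0.00851 to 0.106 in LZ. In PreL the adjusted p was above 0.05 without WT replicate 2 (0.0560) and without SKO replicate 1 (0.0535). In LZ it was above 0.05 when any 1 of the SKO libraries was left out (0.104 to 0.106). In SPG the fold threshold was met in 4 of 6 such fits, all except those without WT SPG replicate 2 or SKO SPG replicate 1.

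The deposited ERCC-calibrated scale moved these genotype differences as a block. The median log2 fold change of all genes was -0.25 in SPG, 0.73 in PreL and -0.25 in LZ on that scale, and the share of calls that were lower went from 34.3% to 59.2% in SPG and from 52.3% to 14.5% in PreL. *Fancd2* had a log2 fold change of -1.26 (adjusted p = 0.00297) in SPG, -0.01 (adjusted p = 0.985) in PreL and -0.75 (adjusted p = 0.0138) in LZ there, below the median of all genes in each stage. Its lower value in SKO PreL therefore held relative to the other genes of the libraries and not on the spike-in scale. The summed value of 6 S phase and proliferation markers (*Mki67*, *Pcna*, *Mcm2*, *Mcm5*, *Top2a*, *Ccnb1*) was 37698 to 40984 in WT SPG and 29898 to 31084 in SKO SPG. It was 52626 to 59659 in WT PreL and 42147 to 54932 in SKO PreL, and it was higher in SKO in LZ, at 49532 to 54552 against 35047 and 42590. The *Fancd2* difference thus ran with these markers in SPG and against them in LZ, and their part in it was not tested.

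*Fanci* encodes the partner of FANCD2 in the clamp (chr7:79391929-79450264, plus strand). In SPG it had 674, 577 and 603 rescaled values in WT and 773, 943 and 744 in SKO, with a log2 fold change of 0.38 ± 0.21 (adjusted p = 0.273). In PreL it had 840, 658 and 953 in WT against 475, 441 and 483 in SKO, a mean ratio of 0.571. There the SKO libraries lay below the WT libraries and close together, and the log2 fold change was -0.77 ± 0.19 (adjusted p = 0.0224). On the ERCC-calibrated scale the PreL value was -0.06 (adjusted p = 0.834). In LZ the libraries overlapped, with 467 and 670 in WT and 457, 492 and 552 in SKO. The difference of the genotype effects between PreL and SPG was -1.18 ± 0.27 on the log2 scale, which missed the threshold in limma (adjusted p = 0.0622) and passed it in DESeq2 (adjusted p = 0.00536). *Fanci* shares 16.0% of its exon length with *Polg* on the other strand, and *Polg* had a PreL log2 fold change of -0.60 (adjusted p = 0.0440). Leaving out any 1 PreL library gave *Fanci* an adjusted p of 0.0235 to 0.0859, which was above 0.05 without WT PreL replicates 1 or 4 and without SKO PreL replicates 1 or 2.

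The promoters of the 3 core complex genes called in LZ are shown because these genes moved in opposite directions in the same comparison. The sequences are from RefSeq (GRCm38.p6) and run from 250 bases before to 50 bases after the start, 5′ to 3′ on the strand of the gene. Capitals mark matches, on either strand, to the motifs searched, which were E2F (TTTNGCGC), the CCAAT box (CCAAT), the E-box (CACGTG), the cAMP response element (TGACGTCA), ETS (CCGGAAG), STRA8 (CNCCTCAG) and NRF1 (GCATGCGC). *Fancc* lies at chr13:63431696-63431995 (minus strand), *Fancf* at chr7:51862218-51862517 (minus strand) and *Fancg* at chr4:43010252-43010551 (minus strand).
Fancc: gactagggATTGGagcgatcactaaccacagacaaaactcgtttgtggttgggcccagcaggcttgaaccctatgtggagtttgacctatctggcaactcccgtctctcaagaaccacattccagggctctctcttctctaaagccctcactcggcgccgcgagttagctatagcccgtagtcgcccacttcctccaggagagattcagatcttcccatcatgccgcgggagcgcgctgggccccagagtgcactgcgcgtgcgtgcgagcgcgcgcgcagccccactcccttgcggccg
Fancf: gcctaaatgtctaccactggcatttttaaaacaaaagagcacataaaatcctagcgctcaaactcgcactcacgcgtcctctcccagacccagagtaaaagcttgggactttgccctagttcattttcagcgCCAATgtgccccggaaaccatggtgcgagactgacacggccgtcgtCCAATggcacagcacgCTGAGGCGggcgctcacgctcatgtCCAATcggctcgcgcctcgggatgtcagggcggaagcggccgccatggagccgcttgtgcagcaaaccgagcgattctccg
Fancg: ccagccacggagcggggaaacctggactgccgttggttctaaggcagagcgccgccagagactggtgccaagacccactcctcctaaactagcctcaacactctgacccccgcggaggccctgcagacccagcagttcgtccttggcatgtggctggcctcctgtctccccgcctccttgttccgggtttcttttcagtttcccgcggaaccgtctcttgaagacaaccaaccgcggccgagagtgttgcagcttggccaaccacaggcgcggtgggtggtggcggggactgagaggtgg
The *Fancf* window held 3 CCAAT matches, 118, 72 and 31 bases before the start, and a STRA8 match 56 bases before it. The *Fancc* window held 1 CCAAT match and the *Fancg* window held no match to the 7 motifs. Of the 9 genes found in the promoter table, 6 had a CCAAT match (37.4% of 32851 promoters had one), 2 an NRF1 match (*Fanci* and *Fancm*, 2.71%), 1 an ETS match (*Fance*, 8.86%) and 1 the STRA8 match (7.94%). E2F, E-box and cAMP response element letters, present in 1.38%, 7.15% and 1.79% of promoters, were in none of the 9 windows. *Fancd2* has no entry in the table. A match is a stretch of letters and was not tested as a binding site.

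*Fancc* encodes a subunit of the substrate-facing module. It had 459 and 663 rescaled values in WT LZ and 185, 283 and 309 in SKO LZ, a mean ratio of 0.462, with no overlap. The log2 fold change was -1.12 ± 0.33 (adjusted p = 0.0243), the smallest of the 3 calls. The call was kept in 1 of 5 fits that left out a library, with an adjusted p of 0.174 without WT LZ replicate 3, 0.0550 without WT LZ replicate 2, 0.0707 without SKO LZ replicate 1 and 0.0559 without SKO LZ replicate 2. Where a WT LZ library is left out, the lone WT library is assumed to vary like the SKO libraries. In PreL the direction was the other one, with 307, 310 and 170 in WT and 326, 341 and 459 in SKO. The PreL log2 fold change was 0.54 ± 0.29 (adjusted p = 0.221) on the rescaled values and 1.23 (adjusted p = 0.00873), a call, on the ERCC-calibrated scale. On the latter scale 26.3% of all genes were called higher in PreL. The genotype effect in LZ minus that in PreL was -1.62 ± 0.61 on the log2 scale (adjusted p = 0.0414), where 38.2% of all genes passed. Over the alternatives the adjusted p of this difference ran from 0.00186 to 0.294. In SPG the libraries overlapped, with 217, 130 and 116 in WT and 66.1, 196 and 251 in SKO.

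*Fancf* encodes the subunit that links FANCC and FANCE to the rest of the core complex, and in the annotation it is a gene with a single transcript (chr7:51860577-51862267, minus strand). It was the 1 gene of the set that rose in SKO LZ. The LZ libraries held 101 and 48.1 rescaled values in WT, from 72 and 26 reads, and 283, 234 and 251 in SKO, from 52, 66 and 60 reads. The log2 fold change was 1.78 ± 0.40 (adjusted p = 0.00810), a mean ratio of 3.43, and it was 1.66 on the ERCC-calibrated scale. Each of the 5 fits that left out 1 library kept the call, at log2 fold changes of 1.28 to 2.24. Thinning every library to the smallest one gave 1.28 and an adjusted p of 0.0532. Summed Sertoli markers were 1827 and 6345 in WT LZ and 6637 to 7706 in SKO LZ (4 of 6 means higher in SKO). Leydig markers were 505 and 926 against 1955 to 5521 (5 of 5 higher). Spermatogonial markers were 8312 and 15488 against 19238 to 23206 (7 of 8 higher). The part of these cell types in the *Fancf* difference was not tested. In SPG the values were 175, 410 and 240 in WT and 196, 127 and 89.0 in SKO, with a log2 fold change of -0.91 ± 0.42 (adjusted p = 0.183), and in PreL the libraries overlapped. The genotype effect in LZ exceeded that in PreL by 1.54 ± 0.59 (adjusted p = 0.0468), with 0.80 (adjusted p = 0.298) on the ERCC-calibrated scale and an adjusted p of 0.0223 to 0.298 over the alternatives. *Fancf* shares 15.0% of its exon length with *Gas2* on the other strand, and *Gas2* had an LZ log2 fold change of 0.21 (adjusted p = 0.640).

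*Fance* encodes the third subunit of the module and did not follow either partner past the threshold. The LZ libraries held 295 and 233 rescaled values in WT and 523, 315 and 309 in SKO, with a log2 fold change of 0.48 ± 0.33 (adjusted p = 0.264). In SPG and PreL the genotypes overlapped, between 325 and 537 in SPG and between 334 and 456 in PreL. The 3 subunits of this module thus had LZ log2 fold changes of -1.12, 1.78 and 0.48.

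*Fancg* and *Fanca* encode the paired subunits that form another part of the core complex. *Fancg* (chr4:43002343-43010506, minus strand) shares no exon with another gene. It had 809 and 1729 rescaled values in WT LZ and 354, 542 and 527 in SKO LZ, a mean ratio of 0.374, and the log2 fold change was -1.35 ± 0.36 (adjusted p = 0.0166). The 2 WT libraries were far apart, and the higher one, replicate 3, also had the higher late spermatocyte marker sum of 149740 against 65825. Without WT LZ replicate 3 the log2 fold change was -0.81 (adjusted p = 0.139), and without SKO LZ replicate 1 it was -1.15 (adjusted p = 0.0593). The part of late spermatocytes in the *Fancg* and *Fancc* differences was not tested. In PreL the SKO libraries, at 384, 320 and 425, lay below the WT libraries, at 587, 671 and 485, with a log2 fold change of -0.60 ± 0.21 (adjusted p = 0.0745). Late spermatocyte markers summed to 10331, 24705 and 7534 in the same WT PreL libraries and to 1268 to 1869 in SKO PreL. Their part in the PreL difference was not tested. In SPG the *Fancg* libraries overlapped, at 327, 245 and 195 in WT and 126, 402 and 253 in SKO.

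*Fanca* had low counts, between 6 and 71 reads per library. Its LZ libraries held 77.4 and 115 rescaled values in WT and 32.7, 60.2 and 37.6 in SKO, without overlap. The log2 fold change of -1.09 ± 0.45 passed the fold and not the test (adjusted p = 0.0782). In SPG the values ran from 57.3 to 76.6 in WT and from 68.9 to 75.1 in SKO, and in PreL from 72.1 to 152 in WT and from 62.2 to 128 in SKO.

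*Fancl* and *Fancb* encode the catalytic subunit and its holder. *Fancl* had 574 and 948 rescaled values in WT LZ and 354, 644 and 426 in SKO LZ, which overlapped, with a log2 fold change of -0.69 ± 0.34 (adjusted p = 0.123). Its SPG libraries held 510, 390 and 457 in WT and 154, 480 and 269 in SKO (log2 fold change -0.70 ± 0.36, adjusted p = 0.243). *Fancl* shares 13.7% of its exon length with *Vrk2* on the other strand, which fell in LZ (log2 fold change -1.68, adjusted p = 0.0130). *Fancb*, on chromosome X, had 0 to 21 reads in any library and passed the filter only in PreL, where WT libraries had 4, 17 and 0 reads and SKO libraries 2, 18 and 21. The SPG reads numbered 15, 16 and 0 in WT against 0, 0 and 1 in SKO. A count of 0 allows up to 3 reads, or a rescaled value of 6.01 in SKO SPG replicate 1 and 6.67 in SKO SPG replicate 3, by counting error only. No fold was computed.

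*Fancm*, the anchor of the core complex, was higher in SKO LZ, with 681, 747 and 890 rescaled values against 475 and 568 in WT, but the log2 fold change of 0.54 ± 0.22 missed the test (adjusted p = 0.0758). In SPG it had 657 to 1107 in WT and 845 to 1069 in SKO, and in PreL 573 to 834 in WT and 778 to 859 in SKO. The orders of the group means placed *Fancm* lowest in WT LZ, below and apart from WT PreL, and *Fancd2* lowest in SKO SPG, below and apart from SKO LZ. The *Fancm* gap was narrow, from 568 in the highest WT LZ library to 573 in the lowest WT PreL library. The limma log2 fold change of *Fancm* from PreL to LZ in WT was -0.51 ± 0.28 (adjusted p = 0.191). For *Fancg* and *Fancc* the highest group was WT LZ, apart from the next group for *Fancg* (WT PreL) and overlapping it for *Fancc* (SKO PreL).

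**Figure D2:**
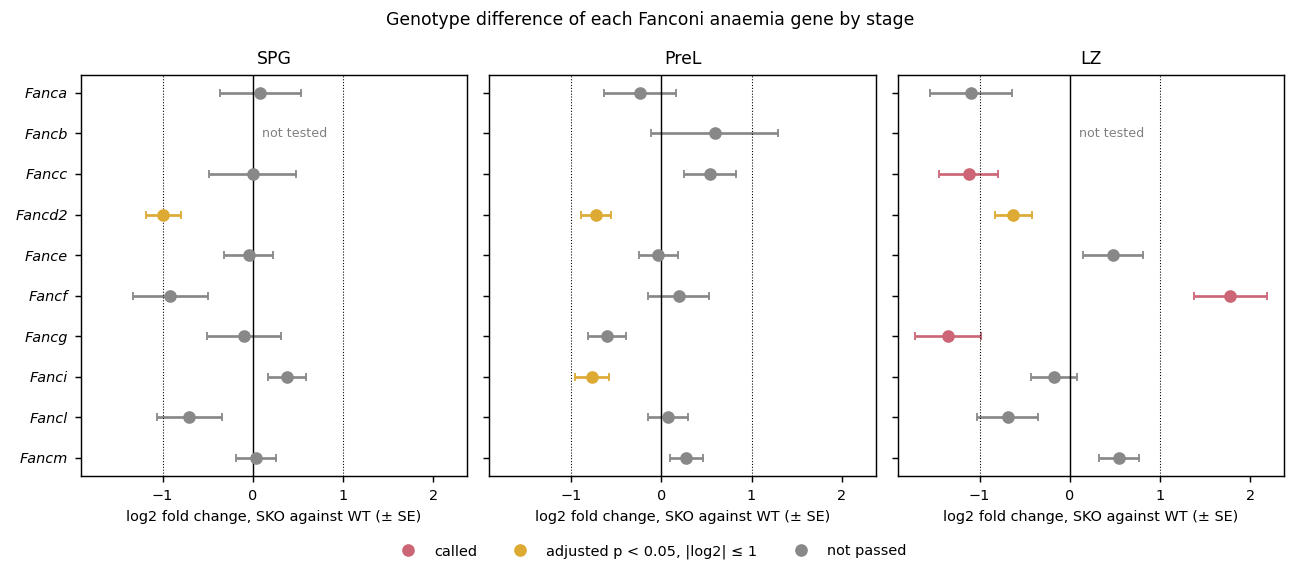
Log2 fold change of SKO against WT with its SE for each gene in SPG, PreL and LZ, from limma on log2(rescaled value + 10). Red points were called, yellow points passed the adjusted p only, grey points did not pass the adjusted p, and dotted lines mark a log2 fold change of 1 in either direction. Calls appear in LZ only, for *Fancc* (-1.12), *Fancg* (-1.35) and *Fancf* (1.78), under the settings used here.

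The stages were also compared within each genotype, and these comparisons share libraries with those above. From SPG to PreL in WT, *Fancg* rose by 1.12 ± 0.27 on the log2 scale (adjusted p = 0.0317), from a mean of 256 to 581, and was the 1 gene called among 9, against 3.75% of all genes. That call was lost with a pseudocount of 50 (log2 fold change 0.97), without the filter (adjusted p = 0.0698), and without WT SPG replicate 2, WT SPG replicate 3, WT PreL replicate 1 or WT PreL replicate 2 (adjusted p = 0.0681 to 0.115). Late spermatocyte markers summed to 3081 to 4302 in WT SPG and 7534 to 24705 in WT PreL, and their part in the *Fancg* rise was not tested. In SKO the same step gave 0.66 ± 0.38 for *Fancg* (adjusted p = 0.332), and 0 of 9 genes were called by limma, edgeR or DESeq2, 4 having an unadjusted p under 0.05 in limma, against 2.59% of all genes. *Fanci* went from a mean of 820 to 466 in that step (log2 fold change -0.77 ± 0.19, adjusted p = 0.0418), short of the fold.

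From PreL to LZ in WT, 0 of 9 genes were called by limma, edgeR or DESeq2, with 3 at an unadjusted p under 0.05 in limma, against 26.6% of all genes. *Fancc* and *Fancg* had the highest values, 0.96 ± 0.38 (adjusted p = 0.0785) and 0.89 ± 0.34 (adjusted p = 0.0708). In SKO 0 of 9 were called by limma, edgeR or DESeq2, with 2 at an unadjusted p under 0.05 in limma, against 17.5% of all genes, and *Fancf* had 0.82 ± 0.28 (adjusted p = 0.0469). On the ERCC-calibrated scale the median of all genes rose by 1.86 from PreL to LZ in WT and by 0.81 in SKO, and by 1.01 from SPG to PreL in SKO, and most genes called there were higher. On that scale 8 of the 9 genes were called higher from PreL to LZ in WT (79.9% of all genes) and 2 in SKO (35.3%), and 5 from SPG to PreL in SKO (43.9%). Between the genotype effects of PreL and SPG, 0 of 9 genes differed in limma (1 at an unadjusted p under 0.05), against 0.362% of all genes. In edgeR 0 of 9 differed, where 3 genes were lower and 13 higher of 13530 tested. In DESeq2 1 differed, *Fanci*, where 190 genes were lower and 144 higher of 13530 tested.

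Other genes of the pathway were taken from 3 lists with 44 genes, all of them listed in the table. In LZ, 12 fell and 5 rose of 43 tested, with a median log2 fold change of -0.48 beside -0.13 over all genes, and the background is the 25.8% lower and 13.4% higher given above. Without WT LZ replicate 3, 7 fell and 5 rose. In PreL 0 fell and 2 rose of 43 in limma and edgeR (16 at an unadjusted p under 0.05), and DESeq2 called 1 lower and 2 higher. Without SKO PreL replicate 1, 0 were called in PreL. In SPG 1 fell and 0 rose of 42 in limma, edgeR and DESeq2, 10 having an unadjusted p under 0.05 in limma.

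Of the 12 further complementation genes, 2 fell and 1 rose in LZ. *Mad2l2*, a subunit of translesion polymerase zeta and of the shieldin complex, had 4833 and 11119 rescaled values in WT LZ and 278, 301 and 347 in SKO LZ (log2 fold change -4.57 ± 0.34, adjusted p = 6.36e-05). *Slx4*, the scaffold of the unhooking nucleases, had 695 and 1775 in WT LZ and 163, 177 and 180 in SKO LZ (log2 fold change -2.66 ± 0.41, adjusted p = 0.00133). In both genes the WT LZ library with more late spermatocyte marker RNA, replicate 3, was the higher one, and the part of late spermatocytes in these differences was not tested. *Brip1*, the FANCJ helicase, rose, with 2438 and 2919 in WT LZ and 29006, 17266 and 24699 in SKO LZ (log2 fold change 3.10 ± 0.25, adjusted p = 7.91e-05). *Ube2t*, which conjugates ubiquitin for FANCL, had 9430 and 13044 in WT LZ and 5609, 6217 and 6892 in SKO LZ, and its log2 fold change of -0.85 ± 0.20 (adjusted p = 0.00939) fell short of the fold.

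Of the 9 core complex partners and monoubiquitination factors, 4 fell and 1 rose in LZ. *Wdr48*, the activator of the deubiquitinase USP1, had 2408 and 5195 in WT LZ and 485, 524 and 481 in SKO LZ (log2 fold change -2.84 ± 0.32, adjusted p = 3.00e-04). Its higher WT library was also replicate 3, and the part of late spermatocytes was not tested. *Usp1* itself overlapped in LZ, at 5304 and 13316 in WT and 5065 to 5530 in SKO (adjusted p = 0.148), and was lower in SKO PreL, at 5100, 4640 and 5017 against 7044, 7403 and 9296 (log2 fold change -0.67 ± 0.14, adjusted p = 0.0106, and 0.06 on the ERCC-calibrated scale). *Hes1*, a Notch target whose protein is a reported partner of the core complex, rose from 298 and 128 in WT LZ to 2140, 1352 and 1521 in SKO LZ (log2 fold change 3.02 ± 0.37, adjusted p = 0.000470). *Faap24*, listed as *C230052I12Rik*, which pairs with FANCM, rose in PreL from 79.6, 36.3 and 39.3 to 194, 208 and 185 (log2 fold change 1.78 ± 0.36, adjusted p = 0.0105, and 0.0557 without SKO PreL replicate 1) and fell in LZ, with 360 and 450 in WT and 120, 127 and 96.1 in SKO (log2 fold change -1.80 ± 0.33, adjusted p = 0.00314). *Uhrf1*, a reader of hemimethylated DNA that also senses crosslinks, was the gene that fell in SPG, with 2175, 1972 and 1891 in WT and 767, 927 and 924 in SKO (log2 fold change -1.21 ± 0.17, adjusted p = 0.000674).

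Of the 23 unhooking, resection, translesion and helicase partners, 22 were tested in LZ, 6 fell and 3 rose. *Rmi2*, listed as *A630055G03Rik*, a subunit of the BLM dissolvasome, had 21046 and 27552 in WT LZ and 388558, 237357 and 299367 in SKO LZ (log2 fold change 3.63 ± 0.33, adjusted p = 0.000125), whereas its SPG and PreL libraries lay between 46034 and 92202 in both genotypes. *Dclre1a*, the SNM1A nuclease, rose in PreL, with 106, 180 and 80.9 in WT and 264, 316 and 274 in SKO (log2 fold change 1.22 ± 0.32, adjusted p = 0.0312), a call lost without WT PreL replicates 1 or 4 and without any of the SKO PreL libraries (adjusted p = 0.0518 to 0.103). The 6 genes named here with the largest LZ changes kept their calls without either WT LZ library.

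**Figure D3:**
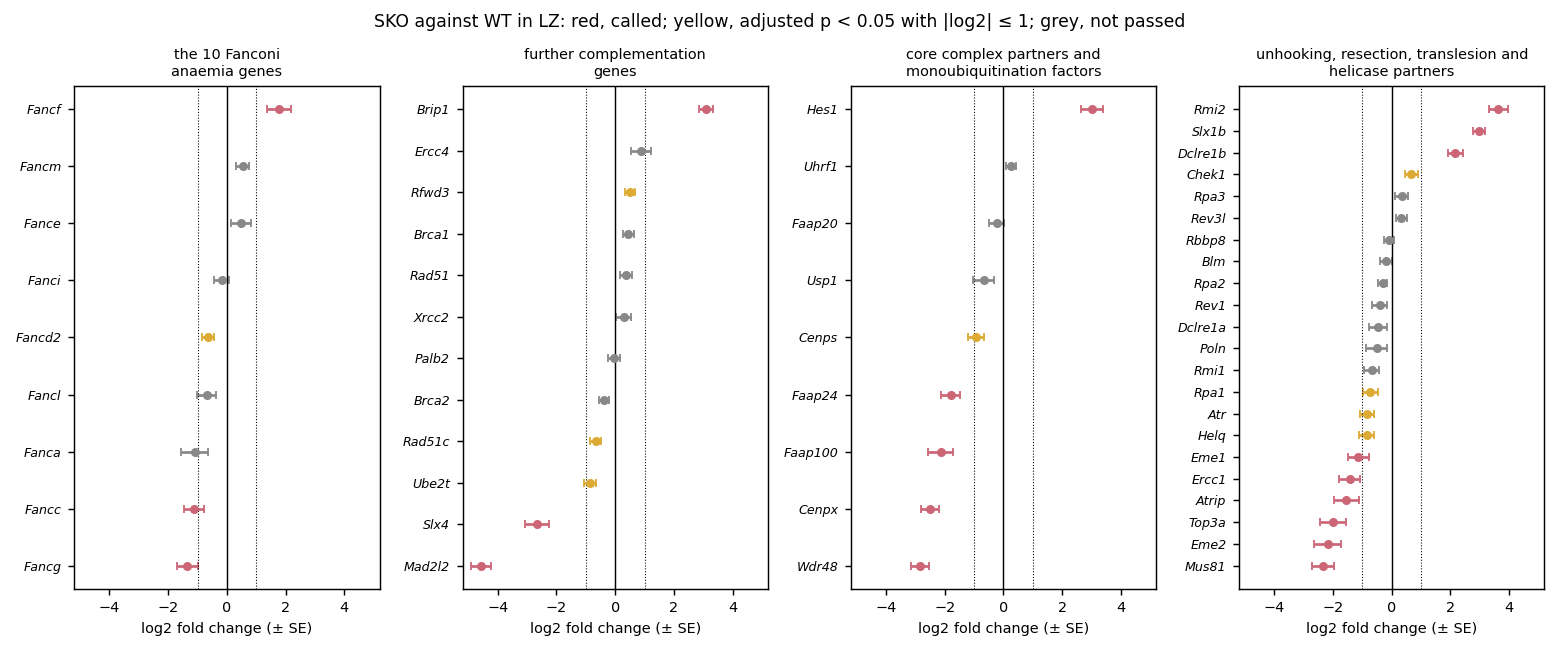
Log2 fold change of SKO against WT in LZ with its SE, for the 9 Fanconi anaemia genes tested and the tested genes of the 3 pathway lists, sorted within each panel. Red points were called, yellow points passed the adjusted p only and grey points did not pass the adjusted p. The changes of the Fanconi anaemia genes ran from -1.35 to 1.78, with a median of -0.63. The other pathway genes, which include *Mad2l2* (-4.57) and *Rmi2* (3.63), had a median of -0.48.

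The genes whose pattern over the 17 libraries was most like each member were sought by Pearson's r of log2(rescaled value + 10), among the 10247 genes that averaged 50 or more recovered reads. The 17 libraries share stage, genotype and depth, so these values are descriptions. *Fancd2* was most like *Rrm1* (r = 0.931), a subunit of ribonucleotide reductase, and *1700023L04Rik* (r = 0.914). *Fancg* was most like *Ccdc21* (r = 0.930) and *Mtl5* (r = 0.911), and *Fancc* most like *4930432K21Rik* (r = 0.914) and *Pdcd2l* (r = 0.904). The values for *Fancf* were 0.883 with *Psme1* and 0.881 with *Eif5a2*, and for *Fanci* 0.856 with *Snrnp27* and 0.814 with *Brd7*. *Fancm* with *Herpud2* and *Ankrd13c* (0.871 and 0.855), *Fancl* with *Apba3* and *4933427G17Rik* (0.846 and 0.839) and *Fance* with *Idua* and *Secisbp2l* (0.794 and 0.771) had lower values. *Fanca* and *Fancb* had too few reads for this comparison.

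Overlap of annotated exons touched 8 of the 10 genes, all except *Fancb* and *Fancg*. The sources used here name no step that kept the strand of the Smart-seq2 cDNA. Reads of shared stretches therefore cannot be assigned to a strand here. Beside the overlaps given above, *Fancc* shares 16.4% of its exon length with the antisense gene *Gm16133*, not listed in the table by that name, and *Fanca* 10.5% with *Zfp276*. *Fancd2* shares 3.24% with *Fancd2os*, listed as *4931417G12Rik*, which had LZ values of 293 and 316 in WT and 572, 418 and 593 in SKO, in the direction opposite to *Fancd2*.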

How the data were processed

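RNA of sorted SPG, PreL and LZ cells was amplified by Smart-seq2 with ERCC spike-in RNA and sequenced as paired-end reads. The authors mapped reads to mm10 (TopHat2 2.1.1 in the submitters' processing notes), took gene counts from reads with a unique position (HTSeq 0.11.2) and deposited signal values, each a count times a calibration factor of its library that rests on spike-in and cell number. Each column's values were whole multiples of 1 factor (100% of values within 0.01 of a whole read), which gave the recovered reads. The calibration factors ran from 1 to 10.4. The deposited table holds 0 ERCC rows and 0 further columns per sample.

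Groups were taken from the sample titles. Values were rescaled with size factors (median of ratios), genes averaging under 10 recovered reads in a comparison were dropped, and log2(value + 10) entered limma 3.58.1 (R 4.3.3, trend on), p-values being adjusted by Benjamini-Hochberg over every gene tested. Fold changes are on the log2(value + 10) scale, which understates changes of low genes. Interactions were fitted over all 17 libraries with no fold threshold. edgeR 4.0.16 (quasi-likelihood) and DESeq2 1.42.0 on recovered reads, other scalings, pseudocounts (1 and 50), filters (none or 50 reads), 1 fit of all libraries, a replicate block, removal of length and GC trends (lowess, span 0.3), thinning to the smallest library and leaving out each library were alternatives. The scripts were tested on simulated data. Exon lengths, positions and overlaps are from GENCODE vM21 (GRCm38), in which 20857 symbols matched directly, 1907 by an older symbol and 518 did not. No pair of libraries of a group agreed within sampling noise, chi-square divided by its degrees of freedom being 5.88 to 62.4.

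The 10 genes and all lists were chosen with earlier results of these data known. Named genes are *Nat10*, the 10 genes, *Ube2t*, *Usp1* and, in each genotype comparison and direction, up to 3 called pathway genes with the largest absolute log2 fold change, besides genes that share exons or patterns with the 10.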

Additional observations from a re-analysis of the deposited data

Results flagged for a closer look

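The genotype effect (log2 fold change of SKO against WT) differed between LZ and PreL for 12 of the named genes, by the limma interaction over all 17 libraries. Of all genes tested, 38.2% did so. The pathway genes other than *Ube2t* and *Usp1* were named for called genotype differences in these same libraries. Their count therefore cannot be set against that share. Among the Fanconi anaemia genes, *Fancc* had a difference (LZ minus PreL) of -1.62 (adjusted p = 0.0414) and *Fancf* one of 1.54 (adjusted p = 0.0468).

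Among the other pathway genes, the LZ effect was below the PreL effect for *Mad2l2* by a difference of -4.06 (adjusted p = 5.45e-08), *C230052I12Rik* (*Faap24*) -3.54 (adjusted p = 0.000870), *Slx4* -2.79 (adjusted p = 0.00274), *Wdr48* -2.53 (adjusted p = 1.15e-05), *Dclre1a* -1.68 (adjusted p = 0.0303) and *Ube2t* -0.997 (adjusted p = 0.00911). It was above the PreL effect for *A630055G03Rik* (*Rmi2*) by 3.77 (adjusted p = 4.55e-08), *Brip1* 3.43 (adjusted p = 1.08e-07), *Hes1* 2.33 (adjusted p = 0.00327) and *Uhrf1* 0.60 (adjusted p = 0.0339). On the ERCC-calibrated scale the difference for *Uhrf1* was -0.27, of the opposite sign.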

How the results depend on the processing

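With 3 called in LZ, 1 from SPG to PreL in WT, 2 in the LZ minus PreL interaction and 0 elsewhere, the number of Fanconi anaemia genes called moved as follows. On the ERCC-calibrated scale it was 1 in SPG, 1 in PreL, 8 from PreL to LZ in WT, 5 from SPG to PreL in SKO, 2 from PreL to LZ in SKO, 6 in the PreL minus SPG interaction and 4 in the LZ minus PreL interaction, a scale that itself moves the median of all genes. Of all genes on that scale, 4.5% were called lower in SPG, 26.3% higher in PreL and 79.9% higher from PreL to LZ in WT. The shares called higher were 43.9% from SPG to PreL and 35.3% from PreL to LZ in SKO. In PreL minus SPG 43.9% were higher, and in LZ minus PreL 48.6% were lower. TMM gave 1 gene called in SPG and 1 from PreL to LZ in SKO. A pseudocount of 1 gave 1 in SPG and 0 in LZ minus PreL, and one of 50 gave 0 from SPG to PreL in WT. No filter, which tests more genes, gave 0 from SPG to PreL in WT and 0 in LZ minus PreL. edgeR gave 1 in SPG and 1 in LZ minus PreL, and DESeq2 1 in SPG, 1 in PreL minus SPG and 1 in LZ minus PreL. No fold threshold gave 1 in SPG, 2 in PreL, 4 in LZ and 1 in each SKO stage step, length and GC trends removed 1 in SPG, and 1 fit of all libraries 2 in LZ (without *Fancc*) and 1 from PreL to LZ in WT. Thinning gave 2 in LZ (without *Fancf*), 1 from PreL to LZ in SKO and 1 in LZ minus PreL. Except where the construction is named, the cause was not tested.

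Leaving out each library gave 0 to 1 in SPG, 0 to 0 in PreL, 1 to 3 in LZ, 0 to 1 from SPG to PreL in WT, 0 to 1 from PreL to LZ in WT, 0 to 0 from SPG to PreL in SKO, 0 to 1 from PreL to LZ in SKO, 0 to 0 in PreL minus SPG and 0 to 2 in LZ minus PreL. Same-numbered libraries had correlations of their deviations between -0.19 and 0.13, and the 1 comparison with 3 pairs (PreL and LZ in SKO) had -0.10, 0.13 and 0.06, replicate 2 alone correlating best with its own number in both stages, so the libraries are treated as sharing only a number. The replicate block gave 0 in SPG, 0 in PreL, 2 in LZ (*Fancc* -0.91, adjusted p = 0.0541), 0 from SPG to PreL in WT and 0 in LZ minus PreL.

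Of 1501 values of single Fanconi anaemia genes under alternatives, 1409 kept their side of the threshold, 1332 of them with the same sign. Calls were lost in 43 and gained in 43 with the same sign, and gained with the opposite sign in 6. In all, 83 values had the opposite sign, 27 of them on the ERCC-calibrated scale and 33 with a library left out. On the ERCC-calibrated scale, the change from PreL to LZ in WT became positive for *Fanca* (1.32), *Fancd2* (1.38), *Fance* (1.06), *Fancf* (0.84, not called), *Fanci* (1.15), *Fancm* (1.30), *Nat10* (1.53), *Usp1* (1.79) and *Brip1* (0.10). The PreL minus SPG difference became 0.98 for *Fance* and 0.92 for *Brip1*, and the LZ minus PreL difference -0.86 for *Usp1* and -0.27 for *Uhrf1*. The *Usp1* difference was -0.65 without WT LZ replicate 2 and 0.66 without WT LZ replicate 3. Over all genes, the number called across alternatives ranged from 423 to 1421 in SPG, 690 to 4044 in PreL, 3817 to 6989 in LZ, 105 to 922 and 1716 to 11007 for the 2 WT steps, 108 to 5687 and 1580 to 4606 for the 2 SKO steps, and 6 to 6085 and 3758 to 7324 for the 2 interactions. The share of calls that were lower went on the ERCC-calibrated scale from 65.8% to 71.2% in LZ, 29.3% to 0.136% from PreL to LZ in WT, 36.9% to 0.528% and 39.6% to 3.33% for the SKO steps, 30.6% to 2.42% in PreL minus SPG (TMM 16.1%, edgeR 18.8%, DESeq2 56.9%) and 60.5% to 89.8% in LZ minus PreL (edgeR 48.3%). Low read numbers limit *Fancb*, *Fanca* and, in LZ, *Fancf* and *Fancc*.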

Other observations

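The 44 other pathway genes were also counted across stages. From SPG to PreL in WT, 0 were called of 44 in limma, edgeR or DESeq2, 11 having an unadjusted p under 0.05 in limma, and in SKO 1 rose of 42 (3.75% and 2.59% of all genes were called). From PreL to LZ, 8 fell and 5 rose of 43 in WT, and 6 fell and 6 rose of 43 in SKO (26.6% and 17.5% of all genes were called). The genotype effect differed between LZ and PreL for 25 of 43, lower in LZ for 12 and higher for 13, where 38.2% of all genes passed. On the ERCC-calibrated scale these counts were 0 lower and 31 higher from PreL to LZ in WT, 0 and 8 in SKO, 0 and 27 from SPG to PreL in SKO, and 25 lower and 5 higher for the LZ minus PreL difference. Of all genes, 79.9%, 35.3% and 43.9% were called higher in these 3 steps, and the difference was lower for 48.6% and higher for 5.54%.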
